A study of Drosophila melanogaster with 249 samples.

Results

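The genes for the subunits of the proteasome were followed in RNA-Seq profiles of Drosophila melanogaster heads. A gene was taken as a proteasome subunit gene if its FlyBase symbol was Prosalpha, Prosbeta, Rpn or Rpt followed by a digit and if its mean in the deposited normalized read counts was over 6, the expression cut-off used in the study. The symbols of 48 genes had that form and 34 of them passed, among 9503 genes over the cut-off and 17142 genes in the count table. The 34 members were 32 canonical subunits and the paralogs Prosalpha1R and Rpt4R. The 14 genes at or under the cut-off were all paralogs, of which Rpt3R came closest with a mean of 5.42 normalized read counts. Just inside the cut-off, Rpt4R averaged 15.5, and the next member, Rpn12, averaged 325.0.

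The proteasome is the protease that degrades ubiquitin-tagged proteins in the cytosol and nucleus. Its 20S core is a barrel of alpha and beta rings, with the proteolytic sites on the beta subunits Prosbeta1, Prosbeta2 and Prosbeta5, and its 19S cap holds a ring of ATPases (Rpt genes) and a set of non-ATPase subunits (Rpn genes) that recognize, deubiquitinate and unfold the substrate. The subunits assemble in fixed proportions, and in flies their transcription is known to be raised by the factor CncC when proteasome activity is low. Several fly paralogs, such as those named with a T, are known for expression in the testis.

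Polyadenylated RNA was measured in pools of 10 heads of 5-day adults that were heterozygous for DrosDel deficiencies (Df), each named for a defined stretch of the X chromosome or of 3L that it lacks. The libraries used here fell into 79 conditions, most with 3 biological replicates and the XX lines w1118/w+ and Df(1)ED7331/+ with 2. There were 96 tra2 XX libraries (19 X Df lines, 11 3L Df lines, w1118 and w1118/w+), 39 XY libraries (the same 11 3L Df lines, w1118 and OreR), 3 tra2 XY libraries (w1118) and 97 XX libraries (19 X Df lines, 11 3L Df lines, w1118, w1118/w+ and OreR). XX flies were females and XY flies males. tra2 XX flies were chromosomal females transformed to somatic males, and they and the tra2 XY males carried the deficiency Df(2R)trix over the tra2B allele, so that loss of tra2 function, a splicing factor of the sex determination pathway, was shared by every library of these 2 classes and absent from the others. X deficiencies stood over a w1118 X chromosome, and the 3L deficiencies were crossed into a w1118 background, each deficiency being a single stock. The run of lowered genes that marks Df(2R)trix held 0 of the 48 subunit symbols.

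Reads on genes numbered 667146 to 18679735 per library, with a median of 5691607 in tra2 XX, 10022543 in XY, 8558525 in tra2 XY and 8859704 in XX. Members took 0.136% to 0.346% of them. Transcripts of tra2 were lowered as the genotypes say, with a median of 35 normalized read counts in tra2 XX and 71.9 in tra2 XY, against 109.9 in XY and 110.2 in XX. Yp1, a yolk protein gene of the female fat body, ran from 10794 to 360938 in XX, but 10 libraries outside XX also exceeded 1000 (5 tra2 XX, 4 XY and 1 tra2 XY), including the 3 libraries with the fewest reads. Where leaving out these 10 libraries changed a result, both values are given. Markers of photoreceptors, neurons, glia, fat body and muscle were all detected in each class, as heads would show.

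Measured per length, as FPKM in the deposited transcript table, the canonical subunits lay in a narrow band. Their median FPKM over all libraries ran from 29 for Rpn2 to 86.7 for Prosalpha2, with a median of 47.6 over the 32 genes, against 11.6 over all 9503 genes. The 7 beta subunits stood at 58.8 to 73.1 FPKM (median 68.7) and the 7 alpha subunits at 41.4 to 86.7 (median 54.7). The 6 ATPases followed at 33.3 to 52.3 (median 46), the ubiquitin receptors Rpn10 and Rpn13 at 42.4 and 42.2, the 8 lid subunits at 31.7 to 56.8 (median 40.2), and the scaffolds Rpn1 and Rpn2 at 33.2 and 29. Levels of core subunits stood above those of cap subunits by these medians, although the alpha subunit Prosalpha4 (41.4 FPKM) lay among the cap subunits and the lid subunit Rpn6 (56.8) among the core subunits.

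Prosalpha2, an alpha ring subunit, stood apart at the top and was higher than the next gene, Prosbeta4, in 202 libraries (86% of all). Most other neighbours in the order were not separated, the upper one being higher in 43% to 67.7% of libraries. The exceptions below Prosalpha2 were Prosbeta7 over Prosalpha5 (73.6%), Rpt6 over Rpn9 (78.7%), Rpn5 over Rpn3 (77.9%) and Rpn2 over Rpt4R (100%). Rpt4R, a paralog of the ATPase Rpt4, was listed at 0 to 4.01 FPKM with a median of 1.18, while Rpt4 itself had a median of 34.9. Prosalpha1R and Prosalpha1 had medians of 45.4 and 45 FPKM. These neighbouring genes are near-identical copies, so reads may have been split between them by the counting, and their separate values are uncertain.

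**Figure D1:**
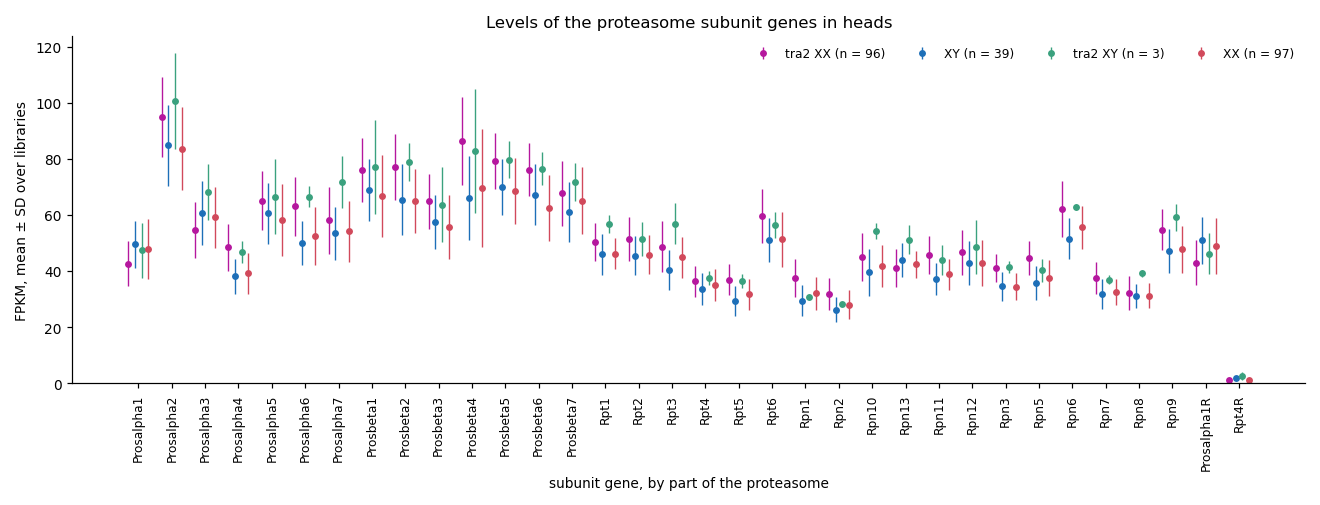
FPKM (y axis, mean ± SD over the libraries of each class) of the 34 subunit genes, ordered along the x axis by part of the proteasome. Beta subunits stood at the highest levels as a group (58.8 to 73.1 median FPKM) and Rpt4R, at 1.18, was near the bottom of the axis.

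Transformed XX males were compared with XX females across the 32 lines measured in both classes, flies that differ in somatic sex and in the tra2 alleles at equal X dose. Almost every subunit gene was higher in tra2 XX heads. Of 34 members, 30 rose and 1 fell (edgeR quasi-likelihood test, adjusted p under 0.05 over 9503 genes), while 35.4% of all genes rose and 41.6% fell, 77% in all. The members' median log2 fold change was +0.32, against -0.03 over all genes. In bulk heads, a larger share of cells of a type and more RNA per cell cannot be told apart.

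All 7 beta subunits (+0.25 to +0.42), all 6 ATPases (+0.26 to +0.37), both scaffolds, both ubiquitin receptors and all 8 lid subunits (+0.20 to +0.42) rose, as did 5 of 7 alpha subunits. Prosalpha4, an alpha ring subunit, ran from 298.7 to 883.0 normalized read counts with a median of 446.0 in tra2 XX (n = 96), against 231.2 to 676.6 with a median of 325.4 in XX. The ranges overlapped, yet Prosalpha4 was higher in tra2 XX in 30 of 32 lines, with a log2 fold change of +0.44 (SE 0.04, edgeR adjusted p = 8.14e-23). Rpn1, a scaffold of the cap base, had medians of 1113 in tra2 XX and 821.4 in XX (log2 fold change +0.43, higher in 28 lines). The lid subunits Rpn3 (+0.42), Rpn7 (+0.39) and Rpn11 (+0.38), the last the deubiquitinase of the cap, and the beta subunit Prosbeta6 (+0.42) completed the 6 largest increases. Rpn7 was the most regular of them, with an increase in 31 of 32 lines (SE 0.03, edgeR adjusted p = 6.75e-30).

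Prosalpha1 (-0.04), Prosalpha1R (-0.05) and Prosalpha3 (+0.06) did not pass the test, and Rpt4R fell by 0.21 (SE 0.09, edgeR adjusted p = 0.0266). Rpt4R had a median of 12.2 normalized read counts in tra2 XX (0 to 42.7) and of 14.7 in XX (2.13 to 32.1), so the groups overlapped almost entirely. The 3 genes that did not pass all lie on 2R, the arm that carries Df(2R)trix and tra2B. Over the 11 members on 2R, 8 rose and the median was +0.21, whereas over the other 23 members 22 rose, 1 fell and the median was +0.35. That division was made after the values were seen and is a description. In the w1118 libraries alone the members' median was +0.39 with 2 members called, beside 1066 of 9503 genes. On FPKM values, where all genes had a median of -0.11, 26 members rose and 5 fell. Of 9503 genes, 7219 were called there in either direction.

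Males were set against females over the 11 3L Df lines, w1118 and OreR, a comparison in which sex and X dose differ together. Subunit genes were mostly lower in XY heads, by a smaller amount. Of 34 members, 22 fell and 1 rose, against 27.3% of all genes that fell and 28.8% that rose, 56.1% in all, and the members' median was -0.14 beside +0.02 over all genes. The largest decreases were those of the alpha subunit Prosalpha6 (-0.27), the lid subunits Rpn6 (-0.27) and Rpn11 (-0.25), and the ATPases Rpt3 (-0.25), Rpt5 (-0.23) and Rpt4 (-0.20). Rpn6, which braces the lid against the core, ran from 529.7 to 781.5 with a median of 600.0 in XY (n = 39) and from 510.0 to 1403 with a median of 750.5 in XX. Every XY library lay within the XX range, but Rpn6 was lower in XY in 13 of 13 lines (SE 0.04, edgeR adjusted p = 3.79e-08). Rpt4R went the other way, with a median of 21.2 in XY and 16.3 in XX (+0.32, SE 0.12, edgeR adjusted p = 0.0182).

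The decrease in XY was less stable than the increase in tra2 XX. In the w1118 libraries alone the XY members' median over XX was +0.11, on the other side of 0. There 0 members were called, beside 505 of 9503 genes. When 1 replicate number was left out in turn, 8 to 18 members fell, beside 4354 to 4871 of 9503 genes called in either direction. On deposited FPKM values, tested with limma, 0 members fell and 5 rose in XY, beside 6735 of 9503 genes called in either direction. The median of all genes on that scale was itself shifted to +0.19, so that members stood at -0.16 relative to it, the same distance as in the count-based fit.

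Transformed XX males against XY males, both somatically male, gave the widest separation (the libraries are shared with both comparisons above). Over the 11 3L Df lines and w1118, 32 members rose in tra2 XX and 1 fell, while 39% of all genes rose and 38.4% fell, 77.4% in all. The members' median was +0.65 and that of all genes 0.00. The +0.32 of tra2 XX over XX came from a wider set of lines, with X Df lines among them. Over the 3L Df lines alone the median of tra2 XX over XX was +0.48, beside -0.03 over all genes. Prosalpha4 ran from 428.8 to 883.0 normalized read counts in tra2 XX (median 525.5) and from 228.3 to 473.5 in XY (median 285.8), the ranges meeting only between 428.8 and 473.5, with a log2 fold change of +0.90 (SE 0.06, edgeR adjusted p = 5.65e-31) and an increase in 12 of 12 lines. Rpn1 (+0.89), Prosalpha6 (+0.82), and Rpt3, Rpn11 and the beta subunit Prosbeta4 (each +0.79) followed. Rpt4R was lower in tra2 XX, with a median of 10.3 (0 to 42.7) against 21.4 in XY (5.83 to 38.4), a log2 fold change of -0.99 (SE 0.14, edgeR adjusted p = 4.42e-10). Only Prosalpha1R, at +0.13, was not called. On FPKM values with limma the members' median was +0.23 and that of all genes -0.29.

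With the tra2 alleles present on both sides, tra2 XX over tra2 XY in w1118 (3 libraries each), 0 members passed edgeR's adjusted test, beside 0.389% of all genes. At an unadjusted p under 0.05 there was 1, Prosalpha4, with 428.8, 465.8 and 496.7 in tra2 XX from lowest to highest and 300.5, 301.6 and 398.1 in tra2 XY (+0.48, SE 0.20, edgeR adjusted p = 0.839). The 2 groups did not overlap for this gene. Of 34 members, 33 had a positive log2 fold change, where 48.6% of all genes did, and the members' median was +0.15. Without the 10 libraries that held Yp1, of which 1 was a tra2 XY library, the median was +0.36, and without replicates 1, 2 and 3 in turn it was +0.29, +0.08 and +0.07.

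**Figure D2:**
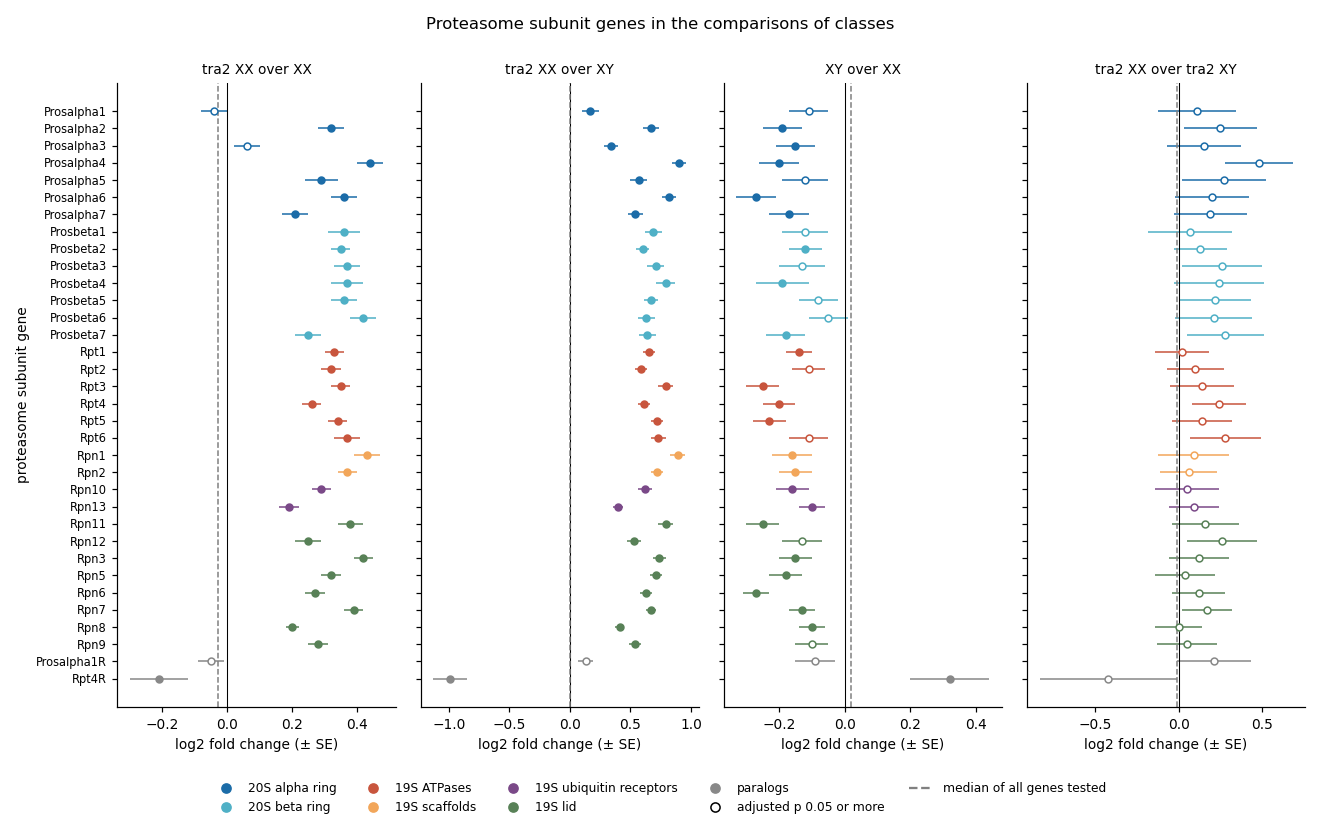
Log2 fold change ± SE (x axis) of each of the 34 subunit genes (y axis) in the 4 comparisons of classes, with filled points for adjusted p under 0.05 and a dashed line at the median of all genes tested. Members lay to the right of the dashed line in tra2 XX over XX and over XY (medians +0.32 and +0.65) and to its left in XY over XX (median -0.14).

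Related gene lists were read beside the same background, in which 35.4% of all genes rose and 41.6% fell in tra2 XX over XX. There 9 of 10 receptors, assembly factors and regulators rose and 0 fell (8 of 9 without Rpn13, which is also a member), with the core assembly chaperone Pomp at +0.52, the deubiquitinase Uch-L5 at +0.49 and the regulator PI31 at +0.32. Of 10 measured genes of ubiquitin conjugation and the p97 segregase, 8 rose and 1 fell, led by the polyubiquitin gene Ubi-p63E (+0.66), the ubiquitin gene Ubi-p5E (+0.41) and the activating enzyme Uba1 (+0.32). The CncC list was divided much as all genes were, with 5 of 12 genes higher and 4 lower. Its largest changes were the increases of the cytochrome P450 gene Cyp6a2 (+3.05), the peroxiredoxin Prx2 (+0.56) and Keap1, the inhibitor of CncC (+0.47). In the autophagy list, also near the background, 2 of 5 rose, the ubiquitin adaptor ref(2)P (+0.71) and Atg8a (+0.15), and 2 fell, among them Atg7 (-0.07).

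Cytosolic chaperones moved with the same contrast. All 16 measured genes of that list rose in tra2 XX over XX (median +3.87), with Hsp70Bb at +4.92. Summed Hsp70 transcripts had medians of 26039 normalized read counts in tra2 XX and 65478 in tra2 XY, against 423.8 in XY and 868.7 in XX. They were high in both tra2 classes. The median log2 deviation of the members from their mean over all libraries was +0.21 in tra2 XX, -0.29 in the 3 tra2 XY libraries (-0.30 to +0.16), -0.29 in XY and -0.15 in XX. The tra2 XY libraries were all w1118, and within w1118 the members' median in tra2 XX over tra2 XY was +0.15. The photoreceptor markers summed to a median of 293686 in tra2 XX, 212862 in XY and 200218 in XX, and the neuron markers to 12880, 19360 and 15526. In tra2 XX over XX, 4 of 4 photoreceptor markers rose (median +0.40), while 2 of 4 neuron markers (-0.19), 3 of 3 muscle markers (-0.47) and 3 of 4 fat body markers (-9.88, the list that holds the yolk protein genes) fell. In XY over XX, 4 of 4 photoreceptor and 3 of 4 neuron markers rose and 4 of 4 fat body markers fell. In tra2 XX over XY, 3 of 4 photoreceptor markers rose (+0.45) and 4 of 4 neuron markers (-0.69), 2 of 3 muscle markers (-0.57) and 2 of 4 fat body markers fell. The part of chaperone levels or of these cell types in the members' differences was not tested.

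In XY over XX, where 27.3% of all genes fell and 28.8% rose, the lists had 6 of 10 receptors and regulators lower and 1 higher (5 of 9 lower without Rpn13), 4 of 10 conjugation genes lower and 2 higher, 6 of 12 CncC genes lower and 3 higher, 4 of 16 chaperones lower and 1 higher, and 2 of 5 autophagy genes lower. The chaperones thus fell about as often as all genes. Called changes ran in both directions, with decreases, among others, of the heat shock gene Hsp70Aa (-0.86), the ubiquilin Ubqn (-0.24), the proteasome activator REG (-0.23), the p97 cofactor Npl4 (-0.21) and the glutamate-cysteine ligase subunit Gclm (-0.61) and increases of the F-box gene ntc (+0.26), the ubiquitin ligase Ube3a (+0.13) and the cytochrome P450 gene Cyp6g1 (+0.33). In tra2 XX over XY the counts of higher and lower genes were 9 and 1, 7 and 1, 7 and 1, 16 and 0, and 2 and 1 in the same order of lists, the first of them with Rpn13 among the higher genes.

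Members were then read in the lines that lacked a copy of one of them. Deleted segments were located as runs of lowered neighbouring genes on the arm named in the Df, always in libraries of classes other than the one tested. The run of Df(3L)ED217/+ held Prosbeta2, that of Df(3L)ED4978/+ Rpn10 as its first gene, that of Df(1)ED6829/+ Rpt4, and that of Df(3L)ED4475/+ Rpt4R. The runs covered 32 to 82 measured genes with median log2 ratios of -0.80 to -0.97, so lack of a subunit copy and lack of its neighbours cannot be told apart. With a stricter limit on the lowering of its genes, the run of Df(3L)ED4978/+ began beyond Rpn10 when located for XX and for XY and held it only when located for tra2 XX, so that loss of the Rpn10 copy is less sure than that of the others. Each line was set against the other conditions of its class.

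Prosbeta2 (FBgn0023174), which carries the trypsin-like site of the core, was lowered most of the 4, in Df(3L)ED217/+. In tra2 XX it had 275.9, 284.8 and 208.8 normalized read counts, against 417.7 to 863.4 (median 552.2) in the other lines, a log2 fold change of -1.11 (SE 0.14, edgeR adjusted p = 1.49e-10). In XY it had 229.8, 194.9 and 203.3, against 289.9 to 587.1 (median 401.1), or -0.94 (SE 0.13, edgeR adjusted p = 4.46e-08). In XX it had 204.6, 227.7 and 211.1, against 299.3 to 759.4 (median 436.3), or -1.02 (SE 0.13, edgeR adjusted p = 6.16e-10). All 9 Df libraries lay below every other library of their class.

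Rpn10 (FBgn0015283), a ubiquitin receptor of the cap, fell less in Df(3L)ED4978/+. Its values in tra2 XX were 427.9, 484.6 and 384.9, against 442.8 to 1139 (median 631.6) in the other lines (-0.56, SE 0.15, edgeR adjusted p = 0.0375), and 3 libraries of other lines lay at or under the highest Df library. In XY the Df libraries had 279.1, 275.1 and 261.2, against 400.5 to 688.1 (median 451.2), with no overlap (-0.76, SE 0.15, edgeR adjusted p = 0.000589). In XX they had 274.0, 371.3 and 360.5, against 329.1 to 952.9 (median 497.9), with 1 library of another line at or under the highest Df library (-0.64, SE 0.15, edgeR adjusted p = 0.00569). The tra2 XX call was lost without any 1 of its Df libraries (-0.64 to -0.48) and the XX call without Df replicate 1 (-0.52) or with any 1 replicate number left out of all conditions. Rpn10 was the outermost gene of its run, and against w1118 of the same class its call was lost in both classes (-0.43, adjusted p = 0.129 in tra2 XX, and -0.53, adjusted p = 0.0614 in XX, edgeR).

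Rpt4 (FBgn0028685), an ATPase of the cap encoded on the X, was measured in Df(1)ED6829/+ in XX and tra2 XX. In tra2 XX it had 366.1, 382.7 and 446.0, against 386.7 to 652.5 (median 525.4), with 12 libraries of other lines at or under the highest Df library (-0.42, SE 0.13, edgeR adjusted p = 0.0171). In XX it had 262.5, 288.6 and 256.1, against 312.4 to 829.9 (median 431.8), with no overlap (-0.72, SE 0.13, edgeR adjusted p = 4.72e-06). The tra2 XX call was lost without Df replicate 1 or 2 (-0.35 and -0.38). Both calls were lost against w1118 of the same class (-0.21, adjusted p = 0.424 in tra2 XX, and -0.37, adjusted p = 0.103 in XX, edgeR).

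Rpt4R (FBgn0036224), the member with the lowest counts, passed edgeR's test in no class. In Df(3L)ED4475/+ it had 42.7, 5.03 and 7.52 normalized read counts in tra2 XX, against 0 to 38.5 (median 12.2). The first of these came from the library with 667146 reads, which also held 9656 Yp1 counts. It had 18.1, 12.6 and 5.83 in XY, against 13.8 to 38.4 (median 21.8), and 10.7, 7.97 and 5.86 in XX, against 2.13 to 32.1 (median 15). The log2 fold changes were -0.50, -0.92 and -0.85 in tra2 XX, XY and XX (SE 0.50, 0.40 and 0.36), with edgeR adjusted p of 0.874, 0.203 and 0.589. In tra2 XX the value ran from -0.97 to +0.06 when a library or a replicate number was left out.

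Averaged over the classes, Prosbeta2 was at -1.02 (SE 0.08, edgeR adjusted p = 2.69e-24), Rpn10 at -0.65 (edgeR adjusted p = 1.64e-09), Rpt4 at -0.57 (edgeR adjusted p = 9.72e-08) and Rpt4R at -0.75 (edgeR adjusted p = 0.0568, and -0.90 with 0.0424 without the 10 libraries with Yp1). This average was added after the data were seen. In it, the libraries tested had also served to locate the runs, so its p-values for the deleted genes do not rest on separate libraries. Whether the effect of a line differed between classes was tested as an interaction. For the deleted member itself, the differences in log2 effect ran from -0.12 to 0.34, with edgeR adjusted p of 0.567 to 1. No member passed in any of the 7 interaction tests, in which 0.516%, 0.0316%, 0.589%, 0%, 1.61%, 0.116% and 0.0316% of all genes did (Df(3L)ED217/+ and Df(3L)ED4978/+ each in tra2 XX minus XX and XY minus XX, Df(1)ED6829/+ in tra2 XX minus XX, and Df(3L)ED4475/+ in tra2 XX minus XX and XY minus XX). At an unadjusted p under 0.05 the members numbered 4, 0, 0, 0, 0, 0 and 8.

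**Figure D3:**
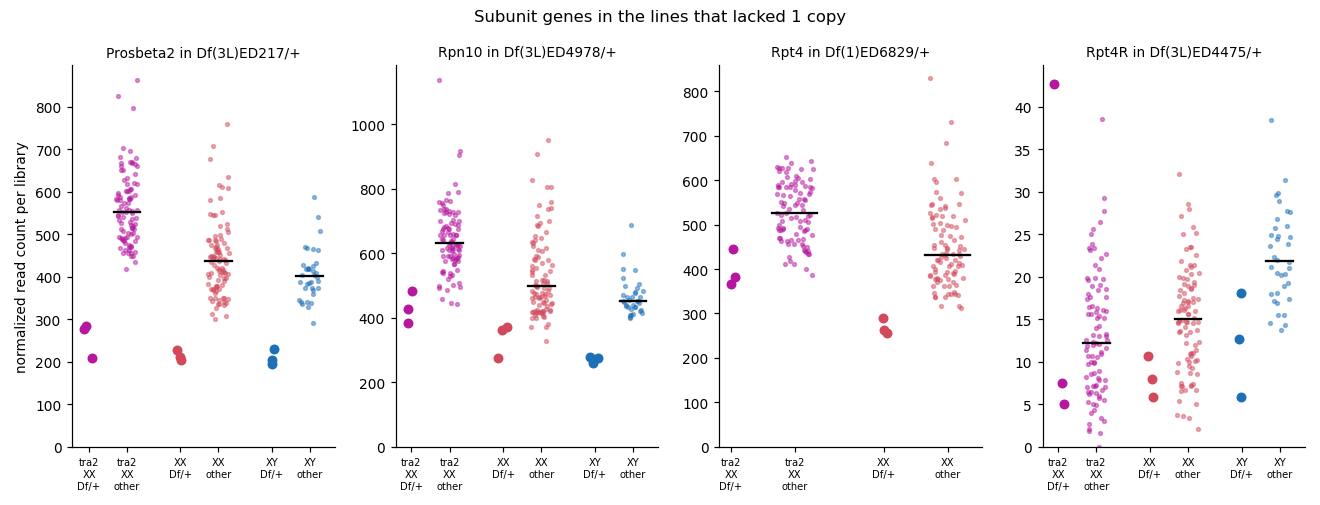
Normalized read counts per library (y axis) of Prosbeta2, Rpn10, Rpt4 and Rpt4R in the line that lacked a copy and in the other lines of the same class (x axis), with a black line at the median of the other lines. For Prosbeta2 the 9 Df libraries (194.9 to 284.8) lay below all other libraries of their class, whereas for Rpt4R the groups overlapped.

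The other subunit genes were next examined in the same lines, to see whether loss of a copy of one goes with changes of the rest. In each of the 11 line and class conditions, 0 of the other 33 members passed edgeR's adjusted test. The shares of all genes called in tra2 XX, XY and XX were 0.789%, 0.926% and 1.94% in Df(3L)ED217/+, 0.863%, 0.474% and 1.68% in Df(3L)ED4978/+, and 0.894%, 5.45% and 1.08% in Df(3L)ED4475/+, and they were 9.42% in tra2 XX and 15.1% in XX for Df(1)ED6829/+. Against w1118 alone, 4 of the others rose in tra2 XX Df(1)ED6829/+, 2 in XX Df(1)ED6829/+, 5 in tra2 XX Df(3L)ED217/+ and 3 in tra2 XX Df(3L)ED4475/+. The shares above do not apply to that reference, and its own share of all genes called is not given here. The w1118 lines had member medians of -0.16 in tra2 XX and -0.27 in XX, themselves measured against conditions that were mostly Df lines. A shift of a Df line and a shift of w1118 cannot be told apart in these counts.

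In Df(3L)ED217/+ the other members stayed near 0 in all 3 classes. Their median log2 fold changes were +0.04 in tra2 XX, -0.07 in XY and -0.06 in XX, with 0 members at an unadjusted p under 0.05 in either direction. The SE of Rpt4, as an example, was 0.11 to 0.13 in the conditions with both of its copies, so that small changes of single members could go uncalled. In Df(1)ED6829/+ the medians of the others were +0.12 in tra2 XX and -0.10 in XX, with 2 members higher and 0 lower at an unadjusted p under 0.05 in tra2 XX, and 0 and 1 in XX. In Df(3L)ED4475/+ they were -0.00 in tra2 XX, +0.16 in XY and -0.13 in XX. Of the 33 others, 8 were higher at an unadjusted p under 0.05 in XY, where 10.7% of all genes were, and replicate 2, with 1381962 reads, stood out there with a member median of +0.69. Without it the median of the others turned to -0.10, and on FPKM values it was -0.30. With that library kept and replicate 1 or 3 left out, 7 and 9 members passed the adjusted test. The share of all genes called in those fits is not given here.

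Of the 4 lines, Df(3L)ED4978/+, whose run began at Rpn10, was the one in which the others leaned upward in every class. Their median was +0.25 in tra2 XX, +0.23 in XY and +0.21 in XX. Against the other 3L Df lines only it was +0.11 in tra2 XX, +0.24 in XY and +0.23 in XX, and without replicate 2 of the line it was +0.13 in tra2 XX. Positive log2 fold changes were seen in 31, 31 and 33 of 33 members, beside 53.6%, 52.6% and 51.6% of all genes. At an unadjusted p under 0.05, 12, 14 and 8 members were higher, beside 4.08%, 2.39% and 5.88% of all genes, but the smallest edgeR adjusted p were 0.0765, 0.0514 and 0.137. The per-library medians over the members were 0.17, 0.48 and 0.09 in tra2 XX, 0.27, 0.17 and 0.24 in XY, and 0.11, 0.41 and 0.17 in XX. All 9 were positive, yet each lay within the range of the other lines of its class except the highest tra2 XX library. Above the highest library of this line lay 0, 1 and 9 libraries of other lines in tra2 XX, XY and XX. The 1 in XY was replicate 2 of Df(3L)ED4475/+ (0.69), with 1381962 reads. Without the 10 libraries with Yp1, 1 member was called in XY. Set against w1118 of the same class alone, 8 of the others rose in tra2 XX and 14 in XX. The member medians of w1118 in these classes (-0.16 and -0.27) were measured against conditions that were mostly Df lines. A shift of this line and a shift of w1118 cannot be told apart in these counts either. The share of all genes called against w1118 is not given here.

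With the effect averaged over the 3 classes, 10 of the 33 other members rose in Df(3L)ED4978/+ and 0 fell, while 1.87% of all genes were called and 0.926% rose. This average was chosen after the data were seen, and the count was 6 without a filter on low counts or on FPKM values, and 1 to 9 when replicates were left out, the lowest without replicate 2 of XX. At an unadjusted p under 0.05, 28 members were higher, beside 5.08% of all genes, and the median over the others was +0.24 beside +0.01 over all genes. The 10 were Prosbeta3 (+0.43), Prosalpha3 (+0.38), Prosalpha5 (+0.38), Prosbeta2 (+0.37), Prosalpha2 (+0.34), Prosalpha4 (+0.34), Prosbeta6 (+0.33), Prosalpha6 (+0.31), Prosalpha1R (+0.31) and Rpn3 (+0.26). All but the lid subunit Rpn3 belong to the 20S core or to its alpha paralog. Such averages were made only for the lines whose run held a member. Df(3L)ED4457/+, whose run held no member, also had positive member medians, +0.23 in tra2 XX, +0.16 in XY and +0.05 in XX. It was not averaged over the classes, so the calls cannot be taken as particular to Df(3L)ED4978/+.

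Prosbeta3, a beta ring subunit without a proteolytic site, had 486.7, 692.8 and 566.1 normalized read counts in tra2 XX Df(3L)ED4978/+, against a median of 427.4 in the other lines, 468.6, 347.1 and 456.6 against 306.4 in XY, and 384.3, 600.9 and 387.1 against 322.9 in XX. All 9 values lay above the median of the other lines (SE of the mean effect 0.09, edgeR adjusted p = 0.00216). Prosbeta2 had 627.4, 824.5 and 668.0 against 545.0 in tra2 XX, 540.1, 463.0 and 506.3 against 387.1 in XY, and 443.5, 611.0 and 482.7 against 423.4 in XX, again 9 of 9 above (SE 0.07, edgeR adjusted p = 3.77e-05). For Prosbeta2 the other lines included Df(3L)ED217/+, in which it was itself lowered, so its increase is overstated to some extent. For Prosalpha3 the values were 565.7, 697.6 and 455.1 against 470.0 in tra2 XX, 643.6, 440.4 and 586.2 against 391.1 in XY, and 512.1, 800.0 and 500.2 against 432.1 in XX. There 1 tra2 XX library lay under the median of the other lines (edgeR adjusted p = 0.00341).

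The same averages gave 0 called among the other members in Df(3L)ED217/+ (1.58% of all genes called) and in Df(3L)ED4475/+ (4%), and 1 in Df(1)ED6829/+ (23.4%), the scaffold Rpn2 at +0.23 (edgeR adjusted p = 0.0448). That call was lost in most alternatives, among them another filter on low counts. Of the related lists, Df(3L)ED4978/+ showed the deubiquitinase Usp14 at +0.25 (edgeR adjusted p = 0.0033) and the chaperone Hsc70-4 at -0.31 (edgeR adjusted p = 0.00234) averaged over classes, and 0 of 4 neuron markers and 1 of 4 photoreceptor markers, lower, were called. In XX Df(3L)ED4978/+ alone, the 1 germ line marker tested, osk, was called higher (+4.26). Germ line markers summed to 0, 61.5 and 127.1 there, against an XX median of 0.943. Fat body markers summed to 908448 to 1365577, against an XX median of 568539, with 0 of 4 called. In XX Df(1)ED6829/+ osk was also called higher (+6.24), with germ line sums of 0, 0 and 686.3. The part of these tissues in the members' values was not tested. In Df(1)ED6829/+, whose run also held the ubiquitin gene Ubi-p5E (-0.90 in tra2 XX and -0.92 in XX), Ubi-p63E (+0.54 and +0.35), Uba1 (+0.51 and +0.37) and the glutathione transferase GstD2 (+2.99 and +1.26) rose in both classes. Photoreceptor markers fell in this line, 3 of 4 in tra2 XX (median -1.18, summed counts 82425 to 106205 against a class median of 293686) and 2 of 4 in XX (-0.40), and their part in these values was not tested. In XX Df(3L)ED217/+, 10 of 16 chaperones rose (median +2.62), with none of the other members called. Summed Hsp70 transcripts were 1664, 2986 and 24487 in its 3 libraries, so that 1 of them stood far above the others. In XY Df(3L)ED217/+ 2 of 16 chaperones rose (median +1.33), beside 0.926% of all genes called. In tra2 XX Df(3L)ED217/+ 0 chaperones rose (median -0.74). Averaged over the classes of this line, Hsp70Aa (+1.65), GstD2 (+0.52) and ntc (+0.38) were among the list genes called.

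**Figure D4:**
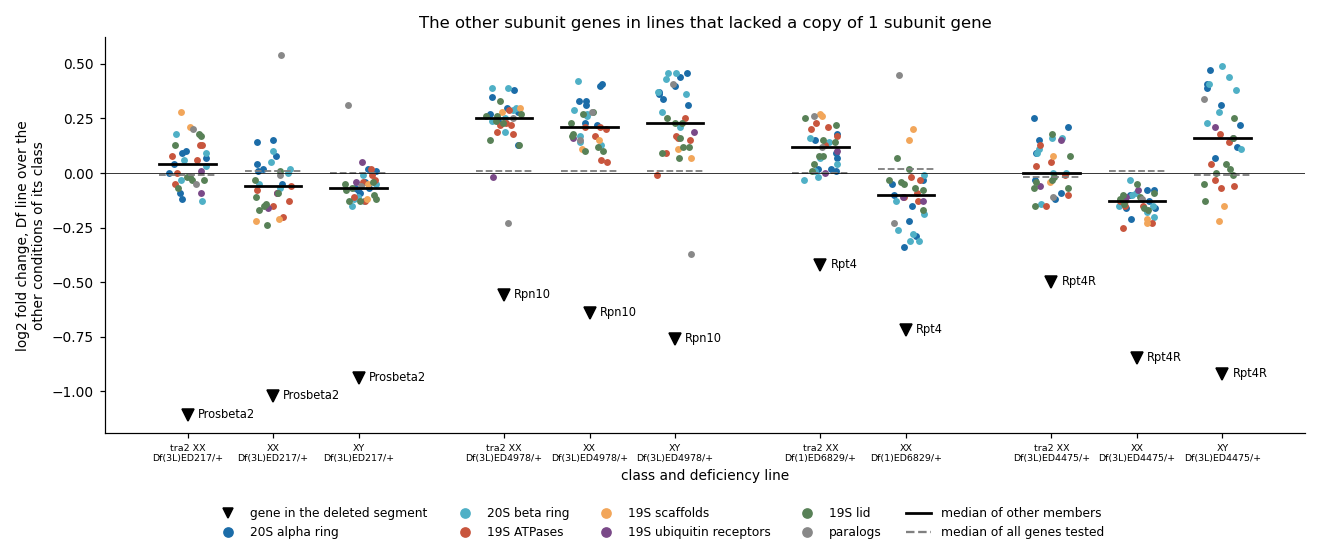
Log2 fold change (y axis) of every member in the 11 conditions whose deleted run held 1 subunit gene (x axis), with a triangle for the deleted gene, a bar at the median of the other 33 members and a dashed line at the median of all genes. The bars stood at +0.21 to +0.25 in the 3 Df(3L)ED4978/+ conditions and between -0.13 and +0.16 in the others.

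To place these lines among the rest, each of the 78 conditions of tra2 XX, XY and XX was set against the other conditions of its class. Df(3L)ED4978/+ ranked 2 of 32 in tra2 XX, 1 of 13 in XY and 6 of 33 in XX by the members' median. The 6 highest tra2 XX conditions were all 3L Df lines. The strongest shifts came from lines that lacked no subunit copy. In XX, Df(1)ED6878/+ had 33 members higher and 1 lower (median +0.67, 56.2% of all genes called), with the beta subunit Prosbeta4 at +1.07 and Rpt4R at -1.44. Df(1)ED6443/+ had 26 higher and 0 lower (+0.43, 39.1%) and Df(1)ED6906/+ 21 and 0 (+0.35, 51.3%). Their library medians over the members were 0.71, 0.56 and 0.62, then 0.34, 0.53 and 0.37, then 0.42, 0.18 and 0.46, against -0.05 at the median of the other XX libraries.

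In tra2 XX the same 3 deficiencies gave medians of -0.02, +0.04 and -0.14 (the difference between classes was not tested). In the 3 XX lines 3, 3 and 4 of 4 neuron markers fell (list medians of -0.72 or lower) and 3, 2 and 3 of 4 photoreceptor markers rose (+0.81, +0.41 and +0.67), 2, 1 and 0 of 3 muscle markers rose (+0.61, +0.25 and -0.07), 1, 1 and 0 of 4 fat body markers fell, and summed neuron markers ran from 6666 to 12005 in them, against a class median of 15526. The part of these markers in the members' shift was not tested. The line medians did not go together between classes. Pearson's r was 0.15 for tra2 XX with XX (n = 32 lines, permutation p = 0.414; rho 0.17, permutation p = 0.35), 0.24 for XY with XX (n = 13, permutation p = 0.417; rho 0.20, permutation p = 0.504) and 0.09 for tra2 XX with XY (n = 12, permutation p = 0.783; rho 0.15, permutation p = 0.635). Without the 2 farthest lines r was 0.11, -0.19 and 0.30, and all adjusted p over the 3 relations were 0.757 or more.

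At the low end in XX stood Df(1)ED7153/+ with 5 members lower (median -0.39, 2.16% of all genes called), the w1118 line without a Df with 9 lower (-0.27, 20.5%) and Df(1)ED13478/+. Against the other X Df lines only, 13 members fell in Df(1)ED7153/+ and 3 in Df(1)ED13478/+, for which the share of all genes called is not given here. With RLE size factors in place of TMM, 2 fell in Df(1)ED7153/+, and the share of all genes called in that fit is not given here either. Of the other XX lines, Df(1)ED6630/+ had 2 lower (26.6%) and Df(1)ED6712/+ 1 higher, Rpn2 at +0.38 (4.36%). In tra2 XX the lowest were Df(1)ED14021/+ (for which no run of lowered genes was found in either class), w1118/w+ with 10 lower and 1 higher (-0.28, 29.7%) and Df(1)ED13478/+. In w1118/w+ the scaffolds Rpn1 (-0.73) and Rpn2 (-0.71) and the ATPase Rpt2 (-0.61) fell, while Rpt4R rose (+1.35). The w1118 line of tra2 XX had 5 lower and 1 higher (-0.16, 27.8%). At its high end, Df(3L)ED4543/+ had 3 members higher (+0.29, 5.61%), Df(3L)ED4457/+ 6 higher (+0.23, 26%) and Df(3L)ED4421/+ 1 lower, Rpt4R at -2.06 (2.42%). The calls in Df(3L)ED4543/+ and Df(3L)ED4421/+ were lost against the other 3L Df lines only. Among XY lines, Df(3L)ED4978/+, Df(3L)ED4457/+ and Df(3L)ED4475/+ were highest and Df(3L)ED211/+, Df(3L)ED210/+ and Df(3L)ED225/+ lowest, and no member was called in any of them except Rpn10 in its own line.

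**Figure D5:**
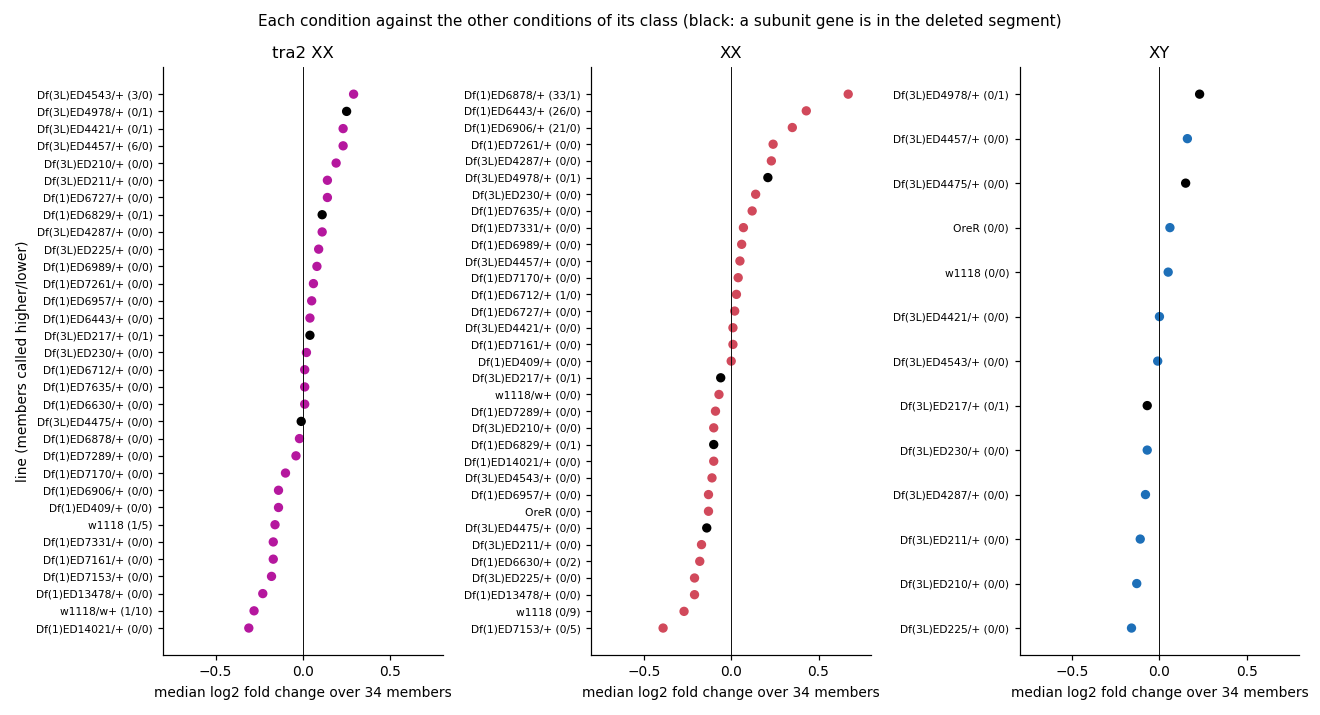
Median log2 fold change over the 34 members (x axis) of each line against the other conditions of its class (y axis, with members called higher and lower in brackets), black where a subunit gene lay in the deleted segment. The XX lines Df(1)ED6878/+, Df(1)ED6443/+ and Df(1)ED6906/+ stood highest at +0.67, +0.43 and +0.35, and the black points were spread over each class.

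Over lines, subunit transcripts rose and fell together in tra2 XX and XX, and less closely in XY. Across condition means of log2 normalized read counts, pairs of canonical subunits had a median Pearson r of 0.79 over 32 tra2 XX conditions, 0.58 over 13 XY conditions and 0.81 over 33 XX conditions, against -0.01, -0.02 and -0.02 for pairs of a member and another gene. The latter pairs had 5th to 95th percentiles of -0.69 to 0.65, -0.66 to 0.64 and -0.75 to 0.69, so the XY subunit median lay within their spread. In XY the subunit pairs ran from -0.34 to 0.92 by the same percentiles, with 88.9% positive. The conditions of all classes share a normalization and, within a class, a genetic background, and the values are a description. Core subunits went together most closely (20S with 20S, 0.87, 0.88 and 0.90), the cap subunits less so (19S with 19S, 0.75, 0.52 and 0.81). Rpt4R ran against the canonical subunits in tra2 XX and XX (median r of -0.54 in both) and was near 0 in XY (-0.09). In XY the scaffolds Rpn2 and Rpn1 also departed from the rest, with r of -0.37 and -0.29 to the median of the members. The XY conditions include Df(3L)ED4475/+, whose replicate 2 had 1381962 reads and a member median of +0.69. In that condition the scaffolds had a median log2 fold change of -0.18, the alpha subunits +0.31 and the beta subunits +0.38. The part of that condition in the XY values of r was not tested.

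The 10 other genes whose levels over lines were most like the median of the members were CG12321 and Pomp (mean r over the 3 classes 0.90 each), GstO2 (0.86), Txl (0.84), Sec13 and ND-30 (0.82 each), ND-20 (0.81), and SdhC, ND-24 and Grx3 (0.80 each). Pomp is the chaperone of 20S core assembly. ND-30, ND-20 and ND-24 encode subunits of respiratory complex I, and SdhC one of complex II. Of the genes in the related lists, the p97 cofactor p47 (0.73), GstD1 (0.69), PI31 (0.68) and Prx2 (0.68) came next after Pomp. Neuron markers ran opposite to the members, with mean r of -0.77 for brp, -0.75 for Syt1, -0.68 for elav and, more weakly, -0.45 for nSyb (-0.15 in XY). Among photoreceptor markers trp did so too (-0.55), whereas ninaE, Arr2 and Rh4 had mean r of 0.34, 0.34 and 0.31.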

How the data were processed

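Polyadenylated RNA of fly heads was sequenced as single-end reads, which the authors mapped to a FlyBase release 5 genome with its annotation. Per the labels and the study's methods, the authors deposited raw read counts per gene (HTSeq 0.5.4p1), FPKM values (Cufflinks 2.1.1) and normalized read counts, a signal scaled by DESeq2 1.6.3 size factors, with TopHat2 2.0.10 and CASAVA 1.8.2 upstream. Raw counts of 235 libraries were used here. The 14 libraries that the study set aside were not analysed. Rows that name no gene (7.12% of reads) and spike-ins (1.19%) were left out.

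Genes with a mean over 6 normalized read counts (9503) were tested with edgeR 4.0.16 (quasi-likelihood test, TMM) in 1 fit with a coefficient for each of the 79 conditions. Benjamini-Hochberg adjustment covered all 9503 genes, with a threshold of 0.05. Class comparisons averaged the lines measured in both classes, and a Df line was set against the other conditions of its class. FPKM values were tested with limma 3.58.1 on log2(FPKM + 1), and counts with DESeq2 1.42.0, as alternatives. Median depth was 7611689 reads on genes. Deleted segments were runs of at least 5 lowered neighbouring genes. The method was also tested on data simulated from the fit. Tools were R 4.3.3, Python 3.11.15, pandas 2.3.3, numpy 2.4.6, scipy 1.17.1 and matplotlib 3.10.9.

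The members, the gene lists and the rule for named genes were chosen with earlier results of these data known. That rule names every member in a deleted segment, up to 6 called members in each direction per class comparison and up to 5 per line, up to 3 genes of each list, the 3 highest and 3 lowest lines of each class, and the 10 other genes most like the members. Genes named beyond it were chosen after their values were seen. Gene arms and names came from BDGP6, in which 16815 of 17142 gene IDs were found.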

Additional observations from a re-analysis of the deposited data

How the results depend on the processing

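The increase of the members in tra2 XX over XX and over XY kept its direction and most of its calls under every alternative run except in the w1118 libraries alone, where 2 members rose and 0 fell in tra2 XX over XX. There Rpt4R stood at 0.27 in tra2 XX over XX and at -0.04 in XY over XX, and in XY over XX 0 members rose, 0 fell and Rpt3 (0.03), Rpn11 (0.06), Rpt5 (0.07) and Rpt4 (0.12) turned to the other side of 0. The cause was not tested. In the w1118 libraries alone 1066 of 9503 genes were called in tra2 XX over XX and 505 in XY over XX. With libraries of the compared classes only, 0 members fell in tra2 XX over XX. On log2(FPKM + 1) with limma, 5 members fell in tra2 XX over XX and 4 in tra2 XX over XY, and 5 rose and 0 fell in XY over XX. On that scale 7219, 7534 and 6735 of 9503 genes were called, in the same order of comparisons. Without a filter on low counts, 14 fell in XY over XX, beside 5844 of 16230 genes called in either direction. When replicates were left out, 0 to 1 members fell in tra2 XX over XX, and 0 to 1 rose and 8 to 18 fell in XY over XX.

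For the deleted genes, w1118 of the same class as the only comparison gave -0.21 and -0.37 for Rpt4 in tra2 XX and XX, and -0.43 and -0.53 for Rpn10 in tra2 XX and XX, none of them called. On FPKM values Rpt4 in tra2 XX was at -0.29 and not called, whereas Rpt4R was called at -0.73 in XY and at -0.42 over the classes. DESeq2 called Rpt4R over the classes at -0.76, and so did the fit without the 10 libraries with Yp1 (-0.90). With replicates left out, Rpn10 ran from -0.66 to -0.46 in tra2 XX, -0.79 to -0.74 in XY and -0.72 to -0.52 in XX, Rpt4 in tra2 XX from -0.50 to -0.35, and Rpt4R from -0.97 to 0.06 in tra2 XX, -1.67 to -0.40 in XY and -1.21 to -0.42 over the classes. Prosbeta2 was called under every alternative run.

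Shares of all genes called are not given beside the counts of alternatives in this paragraph. Among the other members, the comparison with w1118 alone raised the number that rose to 4 in tra2 XX and 2 in XX for Df(1)ED6829/+, 5 in tra2 XX Df(3L)ED217/+, 3 in tra2 XX Df(3L)ED4475/+, and 8 in tra2 XX and 14 in XX for Df(3L)ED4978/+. FPKM values gave 1 higher in tra2 XX Df(1)ED6829/+ and 6 over its classes, 5 lower in tra2 XX, 16 in XY and 16 over the classes for Df(3L)ED4475/+, and 6 higher over the classes for Df(3L)ED4978/+. Size factors by RLE and DESeq2 each gave 1 higher in XY Df(3L)ED4475/+. In XY Df(3L)ED4978/+ DESeq2, the fit without the 10 libraries, the other Df lines of the arm and the replicate block each gave 1 higher. Another filter or none gave 0 higher over the classes for Df(1)ED6829/+ and 6 for Df(3L)ED4978/+. With replicates left out, 0 to 9 were higher in XY Df(3L)ED4475/+, 0 to 1 in tra2 XX Df(3L)ED4978/+, 1 to 9 over its classes and 0 to 1 over the classes of Df(1)ED6829/+. Replicate numbers did not pair the samples (median r of same-numbered deviations -0.03, of differently numbered 0.02), and the replicate block changed no other result. In 233 pairs of replicates of a condition, none agreed within sampling noise. Rpt4R, with the lowest mean of the members (15.5 normalized read counts), had SE of 0.36 to 0.50 in single conditions.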
